A study of Caenorhabditis elegans with 12 samples.

Results

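The poly(A) tail of an mRNA is lengthened in the cytoplasm by poly(A) polymerases, shortened by deadenylases and bound by poly(A)-binding proteins. In the germline of Caenorhabditis elegans, where meiotic cells and oocytes rely on stored mRNAs, this balance sets which messages are translated and takes part in the choice between sperm and oocyte. The mRNAs of 9 genes of this machinery are described here: gld-2, gld-3 and rnp-8, gld-4, the deadenylase genes ccr-4, ccf-1 and parn-1, and the poly(A)-binding protein genes pab-1 and pab-2. They were taken by name from the 39666 gene rows of each of 2 tables. Of the 9, 8 stood under these names and parn-1 stood under its locus name K10C8.1, to which RefSeq pairs it. With oligo-dT priming 8 were tested by the authors and with random hexamers all 9.

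Whole adult XX animals homozygous for fog-2(q71), of strain JK574 and labelled as females, were compared with whole adult XX hermaphrodites of the wild type N2, both grown at 20 °C on OP50 bacteria. FOG-2 is an F-box protein and a partner of GLD-1, which represses translation, and XX animals without FOG-2 make oocytes but no sperm. RNA of 3 samples per genotype was primed in 2 ways, by oligo-dT at the poly(A) tail and by random hexamers anywhere in the RNA, giving 12 libraries in 4 groups. Both primings were compared to look for effects of fog-2 on polyadenylation. Both N2 libraries labelled D carry another strain name than the rest of N2, and 1 N2 hexamer library is described as oligo-dT primed. Titles were followed, and since values are pooled none can be given without that library. Each table holds 1 FPKM value (fragments per length of gene model and per mapped fragment) per genotype, pooled by the authors over 3 libraries. Values and spread per library and read depth are therefore not given here, and every error below is the one implied by the authors' p-value.

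The labels held at the targeted gene, with fog-2 mRNA at 14.4 FPKM in fog-2 animals and 64.2 FPKM in N2 with oligo-dT, and at 7.08 and 34.9 FPKM with hexamers. Germline markers were present in both genotypes, with a summed level over 6 tested genes of 801 FPKM in fog-2 animals and 789 FPKM in N2 with oligo-dT, and no call among them. Of 30 tested sperm markers 15 were called lower with oligo-dT, and their summed level was 34.3 FPKM in fog-2 animals and 149 FPKM in N2. The 7 tested oocyte markers held no call, at 3466 FPKM in fog-2 animals and 3670 FPKM in N2 in sum. Of body wall muscle markers 0 of 6 were called with oligo-dT, and of intestine markers 1 of 4, the protease gene cpr-1, which was lower. With hexamers none of these marker lists held a call, and 5 sperm markers were tested. There the sums were 4751 FPKM in fog-2 animals and 4529 FPKM in N2 over 8 oocyte markers, the other direction than with oligo-dT, and 959 and 865 FPKM over 8 germline markers, of which 1 had an unadjusted p under 0.05. The part of these differences in the members' values was not tested. In RNA of whole animals, fewer cells of a type and less mRNA per cell cannot be told apart.

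None of the members was called different between fog-2 and N2 animals with either priming. A gene was called where the authors' deposited table gave it a q-value of 0.05 or less. By that rule 0 of 8 members were called with oligo-dT, against 1.43% of all tested genes, and 0 of 9 with hexamers, against 0.822% of all tested genes. Their unadjusted p-values in the authors' deposited table ran from 0.12 to 0.88 with oligo-dT and from 0.149 to 0.993 with hexamers, so that 0 members had an unadjusted p under 0.05, against shares of 8.45% (oligo-dT) and 8.97% (hexamers) over all tested genes. At such shares a count of 0 in so few genes shows nothing particular to the members. The median log2 fold of fog-2 over N2 was -0.04 for the members and -0.03 for all tested genes with oligo-dT. With hexamers it was 0.05 for the members and 0.10 for all tested genes. Relative to these medians of all genes, 1 of 8 members with oligo-dT (gld-4) and 4 of 9 with hexamers changed the sign of their fold, all with folds smaller than the shift of 0.03 or 0.10. With hexamers these were gld-3, rnp-8, ccf-1 and parn-1. With both primings and with or without centring, gld-2 and pab-2 were below 0 and ccr-4 and pab-1 above 0, and none of these folds was called. The median absolute log2 fold was 0.06 (oligo-dT) and 0.07 (hexamers) over the members, against 0.23 (oligo-dT) and 0.20 (hexamers) over all tested genes, which include genes at much lower levels. Over genes within 2-fold of a member's level it was 0.10 to 0.20 with oligo-dT and 0.13 to 0.22 with hexamers, depending on the member.

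**Figure D1:**
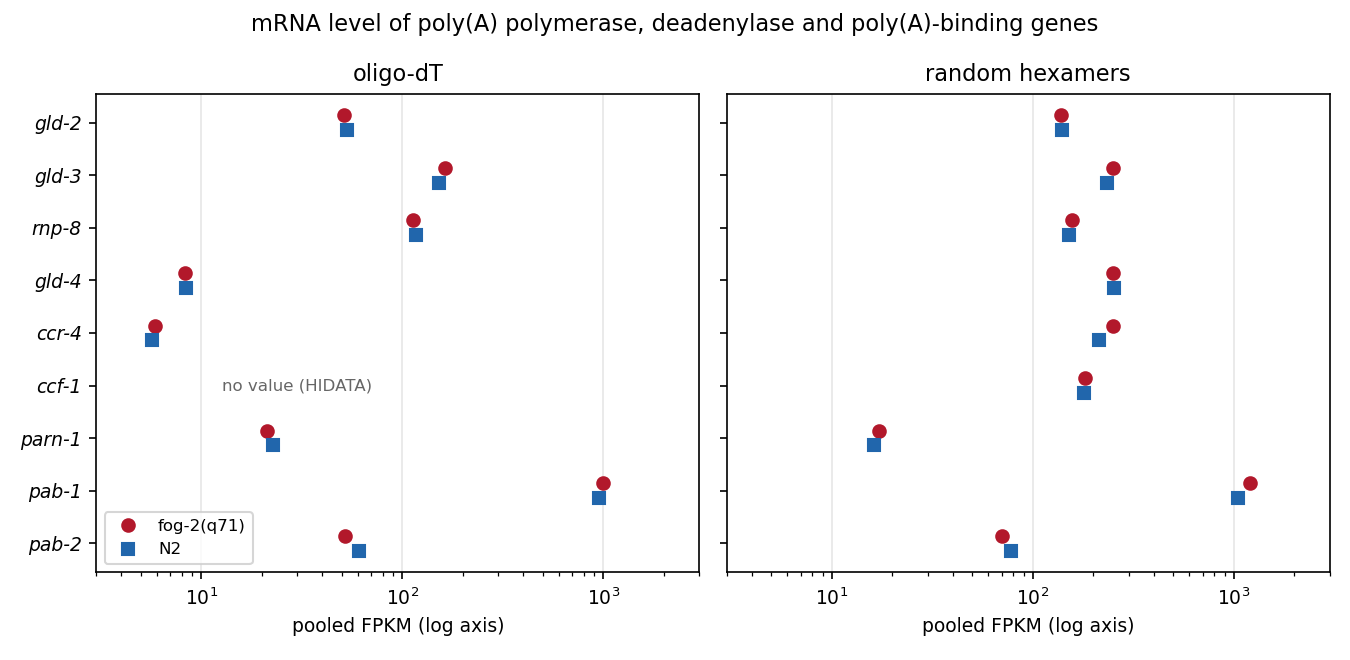
Pooled FPKM of each member on a log axis, with oligo-dT (left) and random hexamers (right); red circles are fog-2 animals and blue squares N2, each 1 value over 3 libraries, so no error is drawn. The genotypes lie close together for every gene, from 5.68 FPKM (ccr-4 in N2, oligo-dT) to 1204 FPKM (pab-1 in fog-2 animals, hexamers), while gld-4 and ccr-4 are low with oligo-dT alone.

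GLD-2 is the founding cytoplasmic poly(A) polymerase of the worm germline. It lacks an RNA-binding domain of its own and is brought to mRNAs by partners. The gld-2 mRNA was at 50.9 FPKM in fog-2 animals and 52.97 FPKM in N2 with oligo-dT, and at 138 and 140.3 FPKM with hexamers. The gene lies on chromosome I (6370031 to 6385086 in the tables, whose genome build no source names). Both primings thus put the genotypes within 4% of each other. The log2 fold was -0.06 (95% interval -0.34 to 0.23) with oligo-dT and -0.03 (-0.34 to 0.29) with hexamers.

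GLD-3, a protein with KH domains of the Bicaudal-C family, is the partner that promotes the sperm fate, and its gene lies on chromosome II (7132601 to 7136826). The gld-3 mRNA was at 162 FPKM in fog-2 animals and 153 FPKM in N2 with oligo-dT, and at 249.7 and 234 FPKM with hexamers. The higher value lay in fog-2 animals each time, with a log2 fold of 0.08 (-0.19 to 0.36) and of 0.09 (-0.21 to 0.40), neither of which was called. RNP-8, a protein with an RNA recognition motif, competes with GLD-3 for GLD-2 and promotes oogenesis, and its gene lies on chromosome I (364522 to 367943). The rnp-8 mRNA was at 113.1 FPKM in fog-2 animals and 117 FPKM in N2 with oligo-dT, and at 157 and 151 FPKM with hexamers, so the order of the genotypes differed between primings. The log2 fold was -0.04 (-0.32 to 0.23) and 0.05 (-0.25 to 0.36). Relative to gld-2, the gld-3 mRNA was at 3.18 in fog-2 animals and 2.89 in N2 with oligo-dT, and at 1.81 and 1.67 with hexamers. The same ratio for rnp-8 was 2.22 in fog-2 animals and 2.20 in N2 with oligo-dT, and 1.14 and 1.08 with hexamers. The ratio of gld-3 to rnp-8 mRNA, the partners tied to sperm and to oocytes, was 1.43 in fog-2 animals and 1.31 in N2 with oligo-dT, and 1.59 and 1.54 with hexamers. On the log2 scale this ratio was 0.13 higher in fog-2 animals (-0.26 to 0.52) with oligo-dT and 0.04 higher (-0.39 to 0.47) with hexamers, and both intervals include 0.

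GLD-4 is the other cytoplasmic poly(A) polymerase of the germline. The gld-4 mRNA was at 8.26 FPKM in fog-2 animals and 8.42 FPKM in N2 with oligo-dT, and at 250.3 and 252 FPKM with hexamers. Genotypes were nearly equal within each priming, at log2 folds of -0.03 (-0.37 to 0.32) and -0.01 (-0.32 to 0.30). The level of gld-2 relative to gld-4 was 6.17 in fog-2 animals and 6.29 in N2 with oligo-dT, but 0.55 and 0.556 with hexamers, so the polymerase mRNA with the higher value differed between primings and was the same in both genotypes.

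CCR-4 and CCF-1 are the catalytic subunits of the CCR4-NOT complex, and CCF-1, the CAF1 homologue, is known as a major deadenylase of the worm. The ccr-4 mRNA was at 5.86 FPKM in fog-2 animals and 5.68 FPKM in N2 with oligo-dT, and at 250.4 and 214 FPKM with hexamers. The hexamer value was 17.2% higher in fog-2 animals, the largest difference among the 9 members in that table, with a log2 fold of 0.23 (-0.08 to 0.54) and q = 0.758 in the authors' deposited table. Relative to the hexamer median of all tested genes it was 0.13, and pab-2 lay furthest from that median, at -0.24. With oligo-dT the log2 fold of ccr-4 was 0.04 (-0.38 to 0.47).

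For ccf-1 the tables hold little information. With oligo-dT the authors marked it HIDATA, their status for loci with too many fragments, and its entry of 0 FPKM is a placeholder. Its locus in the tables spans 1316495 bases and holds 271 gene models, although the gene itself covers 1410 bases in WBcel235. With hexamers it was at 181 FPKM in fog-2 animals and 179 FPKM in N2, but the standard error implied by the authors' p-value was 2.20 on the log2 scale, against 0.16 to 0.20 for the other 8 members. The interval of its log2 fold of 0.02 ran from -4.29 to 4.33. Over the 148 tested models of that locus, ccf-1 included, the median standard error was 1.26.

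PARN-1 is the homologue of poly(A)-specific ribonuclease and is known in the worm for trimming the 3′ ends of piRNAs. Its gene lies on chromosome V (12692524 to 12695237). The parn-1 mRNA was at 21.2 FPKM in fog-2 animals and 22.7 FPKM in N2 with oligo-dT, and at 17.1 and 16.3 FPKM with hexamers. It was the lowest member with hexamers and the only one whose value was lower with hexamers than with oligo-dT. The log2 folds had opposite signs, -0.10 (-0.42 to 0.22) with oligo-dT and 0.07 (-0.33 to 0.46) with hexamers.

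PAB-1 and PAB-2 are cytoplasmic poly(A)-binding proteins, which coat the tail and link it to translation initiation. Their genes lie on chromosome I (pab-1, 10433035 to 10435222) and X (pab-2, 13523135 to 13525749). The pab-1 mRNA was by far the most abundant member, at 991 FPKM in fog-2 animals and 953 FPKM in N2 with oligo-dT, and at 1204 and 1052 FPKM with hexamers. That placed it above 98.8% of tested genes in either genotype with oligo-dT and above 98.5% with hexamers. The log2 fold of pab-1 was 0.06 (-0.24 to 0.35) and 0.19 (-0.17 to 0.56). The pab-2 mRNA was at 52.0 FPKM in fog-2 animals and 61.0 FPKM in N2 with oligo-dT, and at 70.3 and 77.4 FPKM with hexamers. It was the member with the lowest fold in each table, at -0.23 (-0.52 to 0.06) with q = 0.746 and at -0.14 (-0.45 to 0.17) with q = 0.971 in the authors' deposited table. The ratio of pab-1 to pab-2 was 19.1 in fog-2 animals and 15.6 in N2 with oligo-dT, and 17.1 and 13.6 with hexamers. On the log2 scale it was higher in fog-2 animals by 0.29 (-0.13 to 0.70) and by 0.33 (-0.15 to 0.81). Both primings gave the same direction from the same RNA samples, and both intervals include 0.

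The size of fold that the authors called can be described from genes of similar level. Among tested genes whose mean FPKM was within 2-fold of a member's, the smallest absolute log2 fold that the authors called lay between 0.52 and 0.62 with oligo-dT and between 0.60 and 0.70 with hexamers, depending on the member. The whole 95% interval of 7 of 8 members with oligo-dT lay inside the smallest called fold at their level. With hexamers this held for 8 of 9 members. The exceptions were pab-2 with oligo-dT, whose lower bound of -0.52 reached the smallest called fold of 0.52, and ccf-1 with hexamers. A change of 2-fold in either direction lay outside the interval of every tested member in both tables except ccf-1. The smallest called fold is by definition the lowest among the called genes of that level. It therefore does not show which size of change would have been called in a member. Changes inside a member's interval are not excluded.

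**Figure D2:**
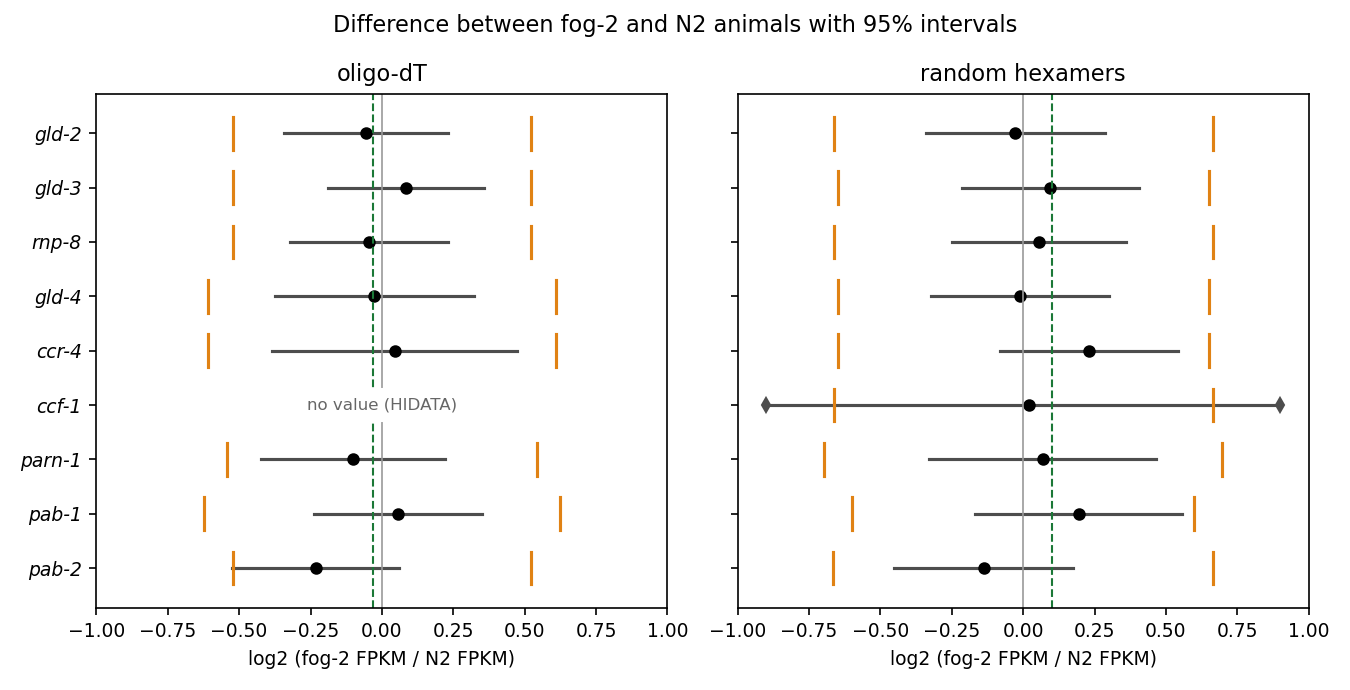
Log2 fold of fog-2 over N2 for each member (black points) with the 95% interval implied by the authors' p-value (grey lines), with oligo-dT (left) and hexamers (right). Orange bars mark the smallest fold called at that level, the dashed green line is the median of all tested genes, and diamonds mark an interval that runs beyond the axis (ccf-1, from -4.29 to 4.33); all intervals include 0.

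The difference between primings was tested as the log2 fold with oligo-dT minus that with hexamers, centred on the median of 8593 genes tested with both (-0.06). This is the comparison that the design makes for polyadenylation. Of 8 members 0 passed an adjusted p of 0.05, and neither did any other gene, so the share called was 0% of the 8593 genes, with 138 genes and 0 members at an unadjusted p under 0.05. The printed p-values stop at 5e-05, which caps how small the p of a difference can be for a gene that changed with 1 priming alone, and the count of 0 is to be read with that limit. The centred differences ran from -0.13 for ccr-4 (-0.66 to 0.40) to 0.05 for gld-3 (-0.37 to 0.46), with 5 below and 3 above 0. For gld-2 the difference was 0.03 (-0.40 to 0.45), for gld-4 0.04 (-0.43 to 0.51) and for pab-1 -0.08 (-0.55 to 0.39). It was -0.04 for rnp-8 (-0.45 to 0.37), -0.04 for pab-2 (-0.46 to 0.39) and -0.11 for parn-1 (-0.62 to 0.40), and the adjusted p was 1 for all 8. With standard errors taken from the authors' test score 29 of all genes passed, and again 0 members. With all errors multiplied by 0.645, an alternative added after seeing the data that sets the median absolute z to that of a normal distribution, 58 of all genes and 0 members passed. The intervals printed here are unscaled and so wider than with that factor. They are not the widest, since errors from the test score were typically larger, with a corresponding factor of 0.411. The mRNA of gld-1, which GLD-2 and GLD-4 are known to promote and which was singled out after its values were seen, was at 155 FPKM in fog-2 animals and 181 FPKM in N2 with oligo-dT, and at 849.8 and 838 FPKM with hexamers. Its centred difference was -0.19 (-0.62 to 0.24).

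Levels of several members differed widely between primings, by similar factors in both genotypes. The tables were normalized separately, so levels set across them are described and not tested. The value of gld-4 was 30.3-fold higher with hexamers than with oligo-dT in fog-2 animals and 29.97-fold higher in N2. For ccr-4 the same ratio was 42.7 in fog-2 animals and 37.6 in N2. For gld-2 it was 2.70 and 2.65, and for gld-3 1.54 and 1.53. Ratios were closer to 1 for rnp-8, at 1.39 in fog-2 animals and 1.30 in N2, for pab-2, at 1.35 and 1.27, and for pab-1, at 1.21 and 1.10. Only parn-1 had a ratio under 1, at 0.805 in fog-2 animals and 0.717 in N2. On the log2 scale, oligo-dT over hexamers, the median of the 8 members was -0.55 in fog-2 animals and -0.49 in N2, against 0.56 and 0.59 for the 8593 genes, and 8 of 8 members lay below those medians. In N2 the ratio of ccr-4 was under that of all but 0.419% of genes and the ratio of gld-4 under that of all but 0.559%.

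The gene models of the tables stop at the coding sequence for these genes. The locus of each of the 8 members tested with both primings in the tables had exactly the length from start to stop codon of the gene in WBcel235, so that the 3′ untranslated region (UTR) lies outside it. For gld-4 the locus was 3647 bases (chromosome I, 9118108 to 9121754, in the tables), and the coding span in WBcel235 is 3647 bases out of a gene of 5067. For ccr-4 it was 8973 bases (chromosome IV, 12361630 to 12370602), again equal to the coding span, in a gene of 10311. Of the 5407 protein-coding genes tested with both primings that shared no locus, 92.4% matched the coding span to within 3 bases. The longest 3′ UTR annotated in WBcel235 was 1420 bases for gld-4, 1226 for ccr-4, 1110 for gld-2, 943 for pab-2, 654 for gld-3, 639 for rnp-8, 188 for pab-1 and 55 for parn-1.

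Members with longer 3′ UTRs had lower oligo-dT levels relative to hexamers. Spearman's rho between UTR length and the ratio was -0.90 over the 8 members in fog-2 animals and in N2. The points of a genotype share their libraries, and both genotypes share the gene models. Over 4899 genes with coding-span loci of their own it was -0.59 in each genotype, as a description across genes, which are not independent replicates. Over 1233 genes with a 3′ UTR of up to 100 bases the median log2 ratio was 0.95 in fog-2 animals and 0.97 in N2. It was -0.25 and -0.20 over 574 genes with 400 to 800 bases, and -0.98 and -0.88 over 199 genes with longer ones. Length outside the 3′ UTR went with the ratio to a like degree, with a rho of -0.57 in fog-2 animals and -0.61 in N2, and the whole spliced length more closely, at -0.68 and -0.72. With the other length held fixed, the partial rho of 3′ UTR length was -0.56 in fog-2 animals and -0.56 in N2 and that of the rest of the transcript -0.54 and -0.59. Over the 8 members whole spliced length gave a rho of -0.55 in each genotype.

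Against genes of similar lengths, gld-4, ccr-4, parn-1 and pab-1 lay below most, gld-2, gld-3 and rnp-8 near the middle and pab-2 above most. Among 39 genes within 1.5-fold of gld-4 in both lengths, the median log2 ratio was -1.88 in fog-2 animals and -1.68 in N2, against -4.92 and -4.91 for gld-4, and 2 and 1 of them lay lower. Among 58 such genes for ccr-4 the medians were -1.36 in fog-2 animals and -1.33 in N2, against -5.42 and -5.23 for ccr-4, and again 2 and 1 lay lower. For gld-2 the medians over 45 such genes were -2.13 in fog-2 animals and -2.06 in N2, against its own -1.43 and -1.41, and 24 and 25 of them lay lower. For gld-3 the medians over 168 genes were -0.63 and -0.59, against -0.62 and -0.61. For rnp-8 119 of 263 such genes lay lower in fog-2 animals and 129 in N2. The medians for parn-1 were 0.78 in fog-2 animals and 0.76 in N2 over 263 genes, against its own 0.31 and 0.48, and 23 and 48 lay lower. For pab-1 they were 0.33 and 0.36 over 592 genes, against -0.28 and -0.14, and 51 and 68 lay lower. The ratio of pab-2 was above most of its 80 such genes, with 68 lower in each genotype. The part of UTR length and of length outside it in these ratios was not tested.

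**Figure D3:**
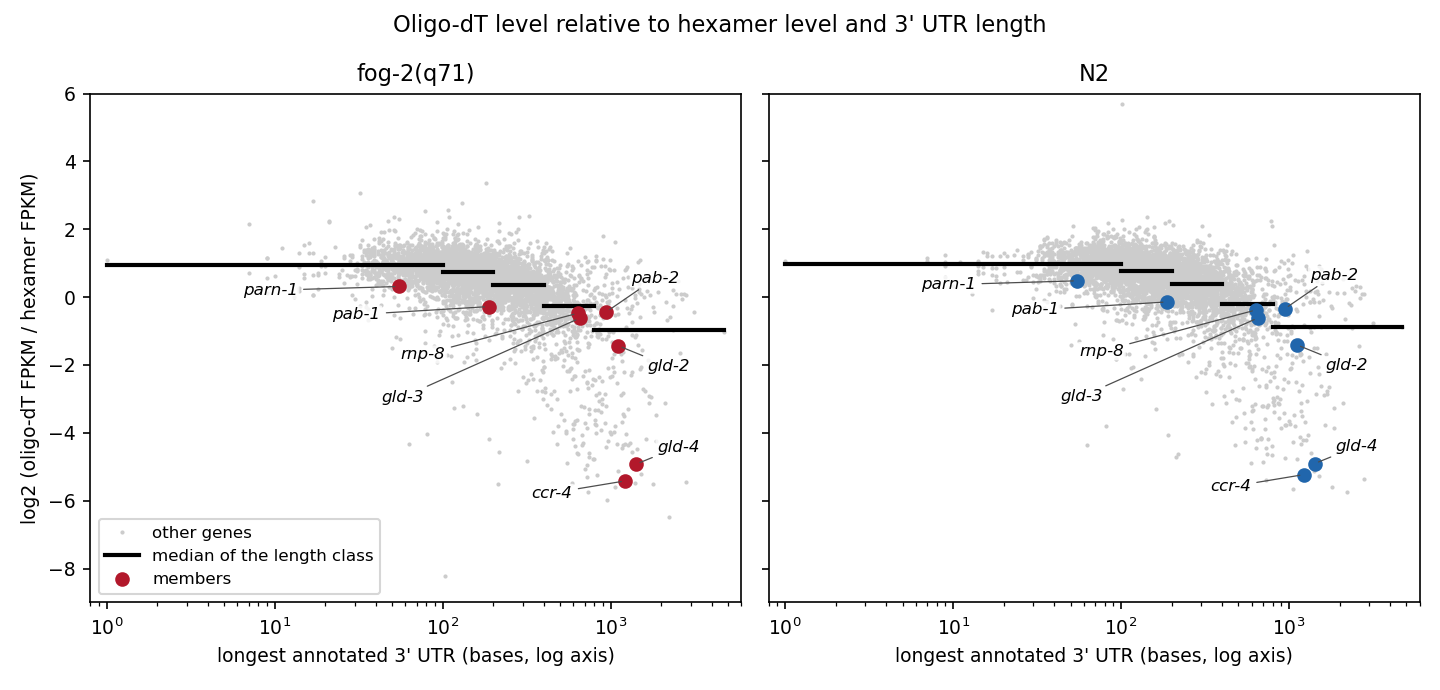
Log2 ratio of oligo-dT to hexamer FPKM against the length of the longest 3′ UTR annotated in WBcel235 (log axis), for fog-2 animals (left) and N2 (right). Grey points are other genes, coloured points the 8 members tested with both primings and black lines the medians of 5 length classes; gld-4 and ccr-4, with 1420 and 1226 bases, lie near -5 in both panels and parn-1, with 55 bases, above 0.

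By level with hexamers, pab-1 led and parn-1 came last in both genotypes. Between them gld-4, gld-3 and ccr-4 formed a group at 214 to 252 FPKM over both genotypes, followed by ccf-1 at 179 to 181 FPKM. Below them came rnp-8 and gld-2 at 138 to 157 FPKM and then pab-2 at 70.3 to 77.4 FPKM. No error of a level is given by the tables, so the order of neighbours was not tested, and in fog-2 animals ccr-4, gld-4 and gld-3 were at 250.4, 250.3 and 249.7 FPKM. The polymerase mRNAs gld-2 and gld-4 and the GLD-2 partner mRNAs gld-3 and rnp-8 thus lay within 2-fold of each other, while parn-1 was at 17.1 FPKM in fog-2 animals and 16.3 FPKM in N2.

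The other tested genes listed for these pathways were not called with either priming. At shares of 1.43% (oligo-dT) and 0.822% (hexamers) called among all tested genes, counts of 0 in such short lists show nothing particular to them. None of 4 tested genes for other CCR4-NOT subunits was called with oligo-dT and none of 5 with hexamers, at median log2 folds of -0.11 and 0.09. Among them ntl-2 was at 114 FPKM in fog-2 animals and 111 FPKM in N2 with oligo-dT, ntl-4 at 30.4 and 33.02 FPKM and ntl-9 at 24.0 and 26.8 FPKM. The scaffold gene let-711, singled out after its values were seen, had a difference between primings of similar size to that of ccr-4, at 5.20 FPKM in fog-2 animals and 5.58 FPKM in N2 with oligo-dT and at 173 and 162 FPKM with hexamers. Its longest annotated 3′ UTR has 702 bases. Other subunits did not share this size, with log2 ratios of oligo-dT to hexamers of 0.58 in fog-2 animals and 0.54 in N2 for ntl-2, -2.86 and -2.71 for ntl-4 and -2.60 and -2.33 for ntl-9. The loci of ntl-2 and ntl-9 did not match the coding span, unlike those of let-711 and ntl-4. Low ratios also occurred outside the complex, at -4.36 in fog-2 animals and -4.34 in N2 for larp-1 and at -4.44 and -4.13 for lin-41, both named here for their values. An opposite case, also named for its values, is pap-1, a nuclear poly(A) polymerase gene with 1404 bases, at 83.1 FPKM in fog-2 animals and 79.04 FPKM in N2 with oligo-dT and at 84.1 and 88.2 FPKM with hexamers.

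Of other deadenylase genes, 3 were tested with each priming and 0 were called, with the PAN complex genes panl-3 at 62.2 FPKM in fog-2 animals and 61.6 FPKM in N2 and panl-2 at 35.98 and 36.9 FPKM with oligo-dT, and angl-1 at 3.42 and 2.99 FPKM. Of other noncanonical nucleotidyltransferases, which add uridines or other bases to RNA ends, 0 of 5 were called with each priming. The most abundant were pup-2 at 254 FPKM in fog-2 animals and 274 FPKM in N2, usip-1 at 151 and 136 FPKM and mut-2 at 94.5 and 83.7 FPKM with oligo-dT. The nuclear poly(A)-binding protein gene pabp-2 was at 203 FPKM in fog-2 animals and 163 FPKM in N2 with hexamers, a log2 fold of 0.32 with p = 0.06005 and q = 0.585 in the authors' deposited table. With oligo-dT it was at 280.3 and 239.6 FPKM, a log2 fold of 0.23.

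Germline RNA-binding proteins bring these enzymes to their targets or keep them away, and 0 of 20 tested were called with each priming. With oligo-dT their median log2 fold was -0.04, and with hexamers 0.07. The most abundant were pos-1 at 1483 FPKM in fog-2 animals and 1507 FPKM in N2, spn-4 at 996 and 989.7 FPKM and puf-5 at 900.3 and 1005 FPKM with oligo-dT. Of the decapping and mRNP remodelling list 0 of 8 were called with oligo-dT and 0 of 10 with hexamers, with the P granule and storage body genes car-1 at 1782 FPKM in fog-2 animals and 1790.0 FPKM in N2 and cgh-1 at 1570.1 and 1734 FPKM, and lsm-3 at 254 and 216 FPKM with oligo-dT. These lists held no gene with an unadjusted p under 0.05 in either of the authors' deposited tables. Over all tested genes the shares were 8.45% (oligo-dT) and 8.97% (hexamers), and the difference from these shares was not tested.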

How the data were processed

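For each priming the authors deposited 1 table of Cuffdiff results for genes. Per the file headers, it gives FPKM in each genotype, a score of the test, and its p-value and q-value. Per the submitters' processing notes the tools were TopHat, Cufflinks 2.1.1 and Cuffdiff; no source used here says how library sizes were scaled. Libraries were made with the Illumina TotalScript kit from Trizol-extracted RNA, per the labels' protocols, which do not say whether poly(A) RNA was selected. The series design calls the samples biological replicates. The authors' p-values test the fold of each gene, and their q-values adjust for all tested genes (status OK). Errors implied by these p-values are not a direct measure of the spread between samples. Log2 folds were computed here as fog-2 over N2 FPKM, without a pseudocount. The standard error of a fold is its absolute value divided by the normal quantile of the authors' p-value, and 95% intervals follow from it. Differences between primings combine both errors as independent, although the same RNA was primed in both ways, with a two-sided normal test and Benjamini-Hochberg adjustment over all genes; intervals of ratios between genes do so too. This step was tested on simulated data drawn with the implied errors, independent between primings and with no lower limit on p. That does not test the size of those errors, the shared RNA or the limit of printed p-values at 5e-05.

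Gene structures are those of WBcel235 (Ensembl release 115). Coordinates of the tables are shifted against it, so only lengths were compared between builds. Loci are printed with a start counted from 1. For gene lengths the longest annotated 3′ UTR and transcript were used. The loci of gld-2, ccr-4 and pab-2 also hold models of noncoding RNA or of no RefSeq class, at up to 8.13 FPKM. No sequence is printed, and 1 further gene of this machinery is not reported here. Depth is unknown.

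Members and lists were chosen with earlier results of these data known. Named besides the members are fog-2 and up to 3 genes per pathway list with the largest mean FPKM with oligo-dT, and called genes; called sperm markers are given by their count alone. Genes named outside this rule are marked where they appear. Python 3.11.15, pandas 2.3.3 and scipy 1.17.1 were used.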

Additional observations from a re-analysis of the deposited data

How the results depend on the processing

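No paired analysis was possible because the tables hold 1 pooled value per genotype and priming, and leaving out a replicate was not possible for the same reason. The count of members called was 0 with each priming at q thresholds of 0.01 and 0.1, at an unadjusted p of 0.05, with a 2-fold minimum, without shared loci and with p-values adjusted again over genes of at least 1 FPKM. The median log2 fold of the members was between -0.04 and -0.01 with oligo-dT in all alternatives run. With hexamers it was 0.05 to 0.07 in all but centring, including one without ccf-1 that was chosen after seeing the data, and centring turned it to -0.05. Centring on the median of all genes changed the sign of 1 of 8 member folds with oligo-dT and of 4 of 9 with hexamers, which are the folds smaller than the shift. The count of members with a priming difference was 0 with errors from the authors' test score (29 genes called in all), without centring, with a minimum of 1 FPKM, with 1 FPKM added and with errors scaled by 0.645, an alternative added after seeing the data (58 genes called in all). Pooled values and unknown depth limit all of these statements.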
